A study of Chimonocalamus delicatus with 27 samples.

Results

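Leaves and rhizomes of *Chimonocalamus delicatus*, an aromatic bamboo, were compared by RNA sequencing, with 3 leaf libraries set against 3 rhizome libraries over all annotated genes. These 6 libraries were taken by their tissue labels from the 27 libraries of a series on terpenoid gene expression in plant parts and culms of several ages; the leaf libraries are labelled only as bamboo leaves and the rhizome libraries only as bamboo rhizomes. No treatment, plant age, plant number or sampling time is given for either group, and the labels leave it unsaid whether a group's libraries are different plants; each p-value therefore reflects library-to-library spread that could be technical only. The leaf libraries held 7586458, 8524846 and 8174162 estimated counts and the rhizome libraries 8952093, 8007590 and 8579367. Levels are given in FPKM (fragments, scaled for gene length and library depth), and differences as log2 of leaf over rhizome with standard errors (after ±) from edgeR's quasi-likelihood fit to the counts, so that a positive value means higher in leaf. A gene was called at a Benjamini-Hochberg adjusted p under 0.05 over all tested genes. Gene symbols are those of similar genes in other species, and the deposited counting could split reads between near-identical family members, so single members of large families are uncertain.

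A grass leaf is a photosynthetic organ: its mesophyll fixes carbon in chloroplasts, its epidermis carries a waxy cuticle and stomata, and it exports sucrose. A bamboo rhizome is an underground stem that imports sucrose, stores it as starch in parenchyma, stiffens its fibres and vessels with lignin and bears buds. Terpenoids, the class of many plant scents, are built from a common isoprenoid precursor made by the methylerythritol phosphate (MEP) pathway in plastids and by the mevalonate pathway in the cytosol; prenyl diphosphate synthases lengthen it, and terpene synthases turn the products into mono-, sesqui- and diterpenes.

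The tissue labels were checked against cell type markers first. Summed over 117 listed mesophyll genes, the level lay between 52443 and 65390 FPKM in leaf libraries, against 434.9 to 515.8 FPKM in rhizome libraries; of 92 tested, 74 were called higher in leaf and 7 lower. Storage parenchyma markers (starch synthesis genes) summed to 433.6 to 467.6 FPKM in leaf against 2966 to 9199 FPKM in rhizome, but their members were split, with 5 of 16 tested called higher in leaf and 7 lower. The root hair list held mostly RHD3 genes and the root endodermis list mostly LSI silicon transporter genes, and the 6 Casparian strip membrane protein genes that define endodermis stayed at or below 0.4 FPKM in leaf and 0.339 FPKM in rhizome. Guard cell and stomatal lineage markers overlapped between the organs in sum, at 72.9 to 78.2 FPKM in leaf against 68.5 to 122.0 FPKM in rhizome, and 5 of 11 tested were called higher in leaf and 2 lower. Within that lineage, the 7 SPEECHLESS and MUTE genes, which act in young epidermis, reached at most 0.284 FPKM in leaf and were at 0 in rhizome. In whole-organ RNA, fewer cells of a type and less RNA per cell cannot be told apart.

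The rhizome libraries differed far more among themselves than the leaf libraries did. Correlations of log2(CPM + 1) were 0.971 to 0.981 between leaf libraries, and among rhizome libraries 0.916 for 1 and 2, 0.943 for 1 and 3, and 0.789 for 2 and 3. Of 26841 genes with at least 1 FPKM in a rhizome library, rhizome 1 lay between rhizome 2 and rhizome 3 for 20211 (75.3%). A difference of 4-fold or more on the FPKM + 1 scale separated rhizome 2 from rhizome 3 for 3499 genes, and separated pairs of leaf libraries for 60 to 151 genes. In summed FPKM, lignin and secondary wall genes were highest in rhizome 2 and lowest in rhizome 3. The list of LEA and dehydrin genes and the nitrogen transport genes were highest in rhizome 3. These values stand beside each group, and their part in the results was not tested.

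**Figure D1:**
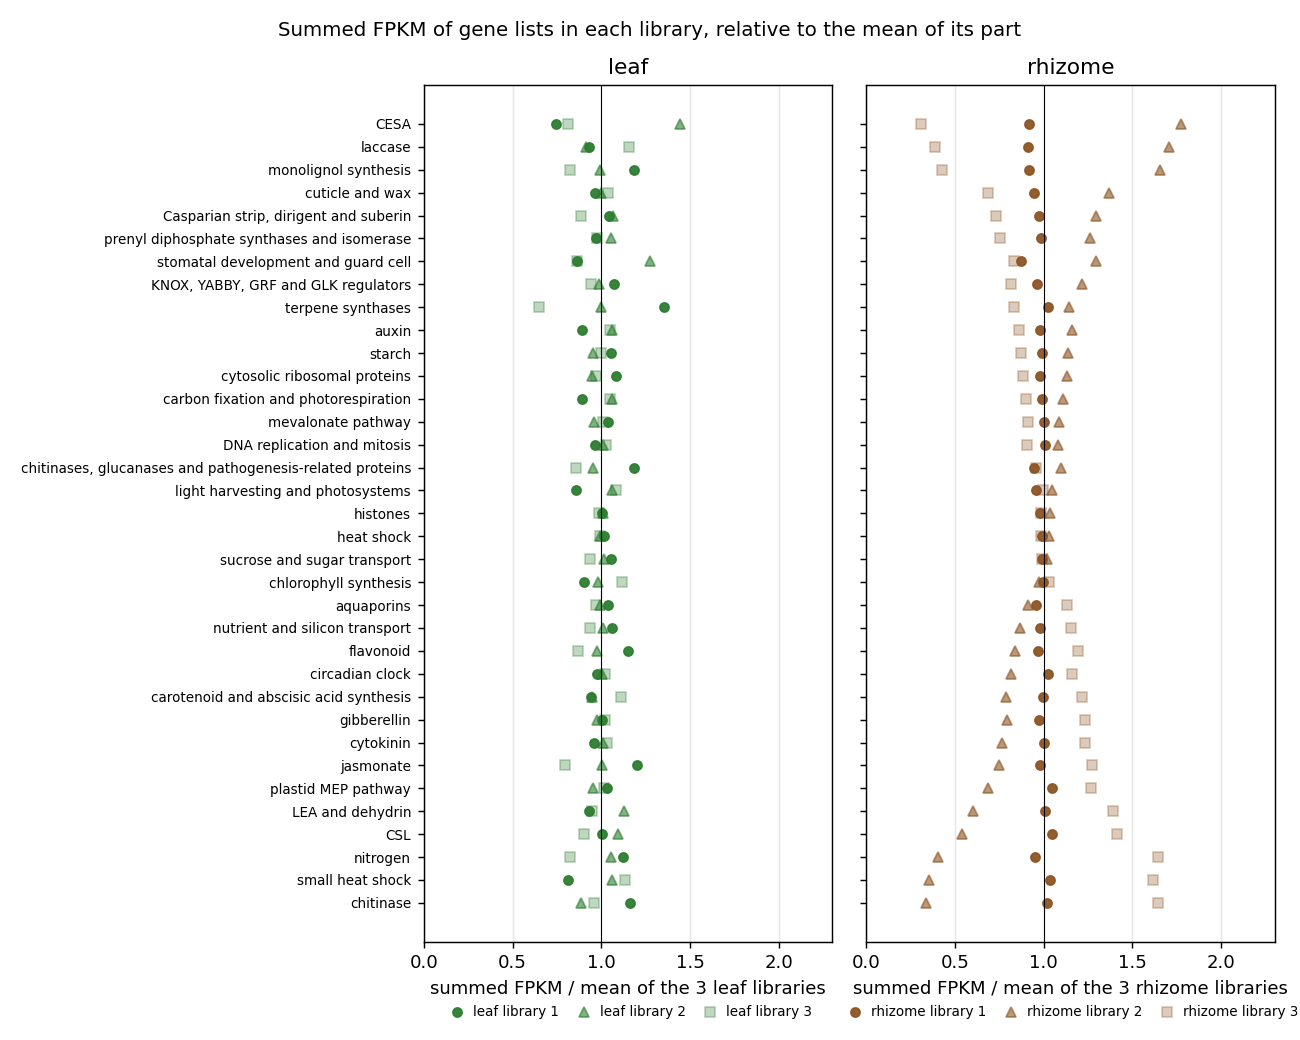
Summed FPKM of each gene list in each library, divided by the mean of the 3 leaf libraries (left panel) or of the 3 rhizome libraries (right panel), on a linear axis; each symbol is 1 library, and lists run by the ratio of rhizome 2 to rhizome 3. Monolignol genes summed to 1708, 1429 and 1181 FPKM in leaf libraries 1, 2 and 3, against 4837, 8721 and 2254 FPKM in the rhizome libraries, and rhizome 1 lies between the others for most lists.

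Differences between the organs spread over the whole gene set. Of 29630 genes tested, 6239 (21.1%) were called higher in leaf and 7319 (24.7%) lower, 45.8% in either direction. The FPKM values of the 3 leaf and 3 rhizome libraries did not overlap for 6096 of the genes called higher and 6627 of those called lower. Among all tested genes, called or not, every leaf value lay above every rhizome value for 25.3% and below for 30.9%. The largest members named from each list below were picked among genes without overlap. The fitted difference exceeded 4 log2 units for 1560 genes called higher and lay below -4 for 1285 called lower. Among called genes, 354 had no count in any rhizome library and 314 had none in any leaf library. The median difference over all tested genes was -0.10, and list medians below are to be read beside it. Counts of called list members are likewise to be read beside the shares of 21.1% called higher and 24.7% called lower.

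The largest called differences were ranked by the difference of mean log2(FPKM + 1) among described genes with a mean of at least 10 FPKM in the higher organ and no overlap, a scale that favours abundant genes. On it, the first 8 above rhizome were photosystem and antenna genes and RCA, and the first 8 below included 3 branching enzyme genes and the starch phosphorylase PHO1. On the fitted log2 scale used for all differences below, other genes went further, among them LOX2.3 (PH02Gene44707) above rhizome and HAK1 (PH02Gene29364) below it, even at the bounds given for them below. PSBS1 (PH02Gene20159), the photosystem II protein that dissipates excess light energy, stood at 2031, 2261 and 2468 FPKM in leaf libraries 1 to 3, against 0.253, 1.13 and 0.264 FPKM in rhizome libraries 1 to 3. No leaf value came near a rhizome value; the log2 difference was 12.12 ± 0.61 (adjusted p = 1.73e-07), and 13.23 without rhizome 2. The antenna gene CAB1 (PH02Gene35533), whose protein binds chlorophyll, had 1977, 2389 and 2384 FPKM in leaf and 0.524, 0.733 and 0.274 FPKM in rhizome, a log2 difference of 12.20 ± 1.00 (adjusted p = 3.78e-06). RCA (PH02Gene23790), the activase that frees Rubisco of inhibitory sugars, had 3447, 3865 and 3510.4 FPKM in leaf and 1.77, 3.95 and 0.762 FPKM in rhizome. Its log2 difference was 10.81 ± 0.68 (adjusted p = 6.44e-07), and 11.65 without rhizome 2. Below rhizome, GPT2 (PH02Gene33450), which carries glucose 6-phosphate into non-green plastids, had 1.1, 0.834 and 0.263 FPKM in leaf, against 588, 369.7 and 803 FPKM in rhizome. That difference was -9.47 ± 0.68 (adjusted p = 1.59e-06), with no overlap. CPK23 (PH02Gene29522), a calcium-dependent protein kinase, had 0.252, 1.02 and 0.227 FPKM in leaf and 208, 161 and 238 FPKM in rhizome, a log2 difference of -8.46 ± 0.54 (adjusted p = 7.11e-07) that came to -9.56 without leaf 2. SAG20 (PH02Gene46389), described as a wound-induced protein, had 0.694, 0.412 and 1.93 FPKM in leaf and 244, 450.01 and 104.9 FPKM in rhizome. All its rhizome values exceeded all leaf values, and the log2 difference of -7.90 ± 0.72 (adjusted p = 8.37e-06) was -8.79 without leaf 3 and -7.19 without rhizome 2.

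**Figure D2:**
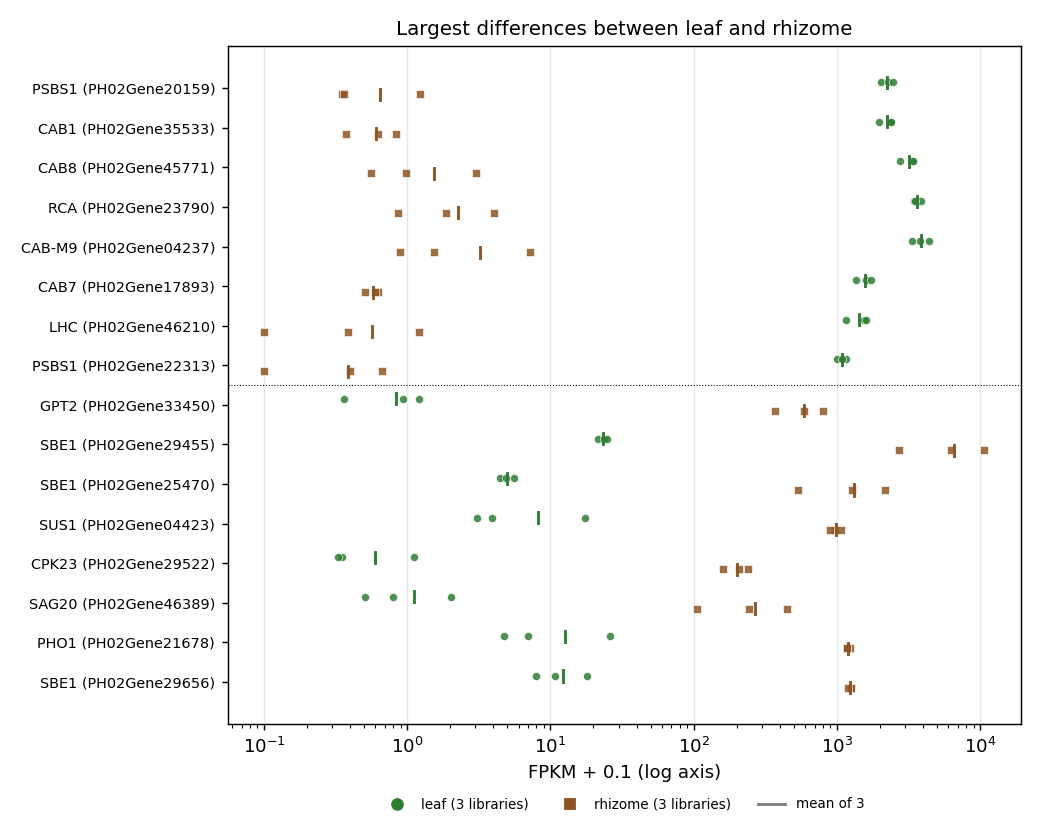
FPKM (log axis) in each leaf library (circles) and rhizome library (squares), with the mean of each group as a tick, of the 8 genes with the largest called differences of mean log2(FPKM + 1) above rhizome and the 8 below it; 0.1 FPKM was added so that values of 0 can be drawn. PSBS1 PH02Gene20159 lies at 2031 FPKM or more in every leaf library and at 1.13 FPKM or less in rhizome, and GPT2 PH02Gene33450 lies at 1.1 FPKM or less in leaf and at 369.7 FPKM or more in rhizome.

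Genes of light harvesting and the photosystems were higher in leaf almost throughout. Of 119 in the table, 97 were tested; 86 were called higher in leaf and 3 lower, with a median log2 difference of 8.03. Summed, these genes made up 7.12%, 8.86% and 9.01% of all FPKM in leaf libraries 1, 2 and 3, against 0.0741%, 0.0809% and 0.0772% in the rhizome libraries. Antenna genes had a median of 10.04 over 39 tested, and core and electron transport genes 6.63 over 58. The other antenna genes among the largest differences behaved alike: CAB8 (PH02Gene45771) had 2762, 3413 and 3409 FPKM in leaf and 0.464, 2.94 and 0.887 FPKM in rhizome, and CAB7 (PH02Gene17893) had 1365, 1601.8 and 1719.9 FPKM in leaf and 0.406, 0.53 and 0.494 FPKM in rhizome. CAB8 differed by 11.23 ± 0.83 (12.39 without rhizome 2) and CAB7 by 11.80 ± 0.48, with adjusted p = 1.90e-06 and 1.08e-07. A chlorophyll a-b binding family gene (PH02Gene19244) ran against the list, with 5.11, 4.14 and 3.45 FPKM in leaf and 24.3, 11.9 and 28.4 FPKM in rhizome. It was lower in leaf, with a log2 difference of -2.19 ± 0.46 (adjusted p = 0.00282), without overlap. Without leaf 2, leaf 3 or rhizome 1 in turn, 1 list member was called lower.

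The Calvin cycle followed the photosystems, while photorespiration was split. All 26 tested Calvin cycle genes had a median log2 difference of 9.49, and 24 were called higher in leaf with none lower. RBCS-A (PH02Gene30282), the small subunit of the CO2-fixing enzyme Rubisco, was the most abundant, with 4935, 6775 and 5924 FPKM in leaf, against 10.4, 21.9 and 3.43 FPKM in rhizome. Its log2 difference was 9.04 ± 0.73 (adjusted p = 3.28e-06), and 9.93 without rhizome 2. Among 33 tested photorespiration genes, 20 were called higher and 7 lower in leaf. GLO4 (PH02Gene10598), a peroxisomal hydroxy-acid oxidase, was 1 of the 7, with 0.496, 1.24 and 0.092 FPKM in leaf and 73.8, 98.9 and 52.8 FPKM in rhizome. The log2 difference of -6.80 ± 0.60 (adjusted p = 6.36e-06) came to -7.86 without leaf 2.

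Chlorophyll synthesis genes were called higher in leaf for 33 of 40 tested and lower for 1 (2 without rhizome 3), with a median log2 difference of 2.70. CHLH (PH02Gene25100), the magnesium chelatase subunit that commits porphyrin to chlorophyll, had 226, 241 and 275 FPKM in leaf, against 0.102, 0.171 and 0.32 FPKM in rhizome. CRD1 (PH02Gene16028), the cyclase that closes the chlorophyll ring, had 1252, 1427 and 1646 FPKM in leaf and 6.87, 7.75 and 7.91 FPKM in rhizome. Both groups were tight and far apart, with log2 differences of 10.41 ± 0.65 for CHLH (adjusted p = 5.96e-07) and 7.72 ± 0.40 for CRD1 (adjusted p = 2.01e-07). The member lower in leaf was a copy of CHLP (PH02Gene49842), geranylgeranyl reductase, which makes the phytol tail of chlorophyll; it had 1.93, 1.39 and 1.54 FPKM in leaf and 9.52, 8.99 and 10.8 FPKM in rhizome, a difference of -2.45 ± 0.42 (adjusted p = 0.000799). All 10 tested sigma factors of the plastid RNA polymerase were also called higher in leaf, with a median of 3.01. For GLK2 (PH02Gene39001), a regulator of chloroplast development, leaf libraries had 36.1, 38.1 and 29.2 FPKM and rhizome libraries 0.253, 1.02 and 0 FPKM. Its log2 difference was 6.45 ± 0.74 (adjusted p = 4.30e-05), 8.18 without rhizome 2 and 5.85 without rhizome 3.

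The plastid MEP pathway, which supplies isoprenoid units for monoterpenes, carotenoids and the chlorophyll tail, was higher in leaf at its later steps. Of 18 tested genes, 11 were called higher and 1 lower, with a median log2 difference of 1.71. ISPG (PH02Gene14026), the synthase of the penultimate step, had 205, 186 and 212 FPKM in leaf and 69.3, 36.3 and 89.8 FPKM in rhizome. ISPH (PH02Gene06218), the reductase of the last step, had 322, 304 and 306 FPKM in leaf, against 63.4, 37.2 and 73 FPKM in rhizome. These genes differed by 1.79 ± 0.29 (adjusted p = 0.000477) and 2.58 ± 0.30 (adjusted p = 4.64e-05), with no overlap. Of the middle steps, ISPD (PH02Gene10723) differed by 1.76 ± 0.29 (adjusted p = 0.00052), and the 2 tested ISPF genes by 3.28 ± 0.42 for PH02Gene03350 and 2.38 ± 0.24 for PH02Gene01477 (adjusted p = 9.54e-05 and 1.58e-05).

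The first steps of the MEP pathway and ISPE did not share this direction in their most abundant copies. The leading 1-deoxy-D-xylulose-5-phosphate synthase gene, the entry enzyme (PH02Gene29284, symbol TKT2), had 16.3, 14.8 and 15.3 FPKM in leaf, against 42.8, 41.6 and 42 FPKM in rhizome. It was lower in leaf, with a log2 difference of -1.31 ± 0.18 (adjusted p = 0.000166). DXR (PH02Gene19646), the reductoisomerase that follows, had 22.5, 22.8 and 21.6 FPKM in leaf and 29.9, 29.5 and 28.7 FPKM in rhizome. These FPKM values did not overlap, but the count fit, which also scales for library composition, put the difference at -0.12 ± 0.24 (adjusted p = 0.712), and the gene was not called. For the most abundant ISPE gene (MSTRG.14653) the difference was -0.11 ± 0.18 (adjusted p = 0.629). Of the 2 tested DXR genes and the 2 tested ISPE genes, however, 1 each was called higher in leaf. Summed over both genes, DXR had 51.6, 54.4 and 49.3 FPKM in leaf and 41.4, 33.5 and 46.8 FPKM in rhizome.

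The cytosolic mevalonate pathway showed no common direction. Of 24 tested genes, 4 were called higher in leaf and 6 lower, with a median log2 difference of -0.34, and the summed level was 293.5 to 318.4 FPKM in leaf, against 284.7 to 340.2 FPKM in rhizome. HMGR (PH02Gene07047), from the enzyme family that limits the pathway's rate, had 15.4, 18 and 17.5 FPKM in leaf and 2.09, 2.14 and 2.83 FPKM in rhizome, a log2 difference of 2.99 ± 0.42 (adjusted p = 0.000195). An acetyl-CoA acetyltransferase gene of the first step (PH02Gene19660) had 55.7, 37.6 and 48.1 FPKM in leaf and 2.24, 2.8 and 2.15 FPKM in rhizome, a difference of 4.42 ± 0.29 (adjusted p = 8.69e-07). MVD2 (PH02Gene20453), the decarboxylase of the last step, was lower in leaf, at 8.36, 5.53 and 9.48 FPKM against 35.2, 48.4 and 20.3 FPKM in rhizome. Its log2 difference was -2.04 ± 0.37 (adjusted p = 0.00112). The most abundant genes of the other steps were not called: AAT1 (PH02Gene24433) at 0.32 ± 0.21, HMGS (PH02Gene21584) at 0.58 ± 0.26, mevalonate kinase (PH02Gene01687) at -0.48 ± 0.21 and PMK (PH02Gene32702) at -0.41 ± 0.17, with adjusted p between 0.067 and 0.238. Without rhizome 2, AAT1 (0.53, adjusted p = 0.0494) and mevalonate kinase (-0.62, adjusted p = 0.0302) passed.

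Prenyl diphosphate synthase and isomerase genes, counted together, were called higher in leaf for 11 of 21 tested and lower for 1 (5 without rhizome 3), with a median log2 difference of 1.31. All 4 tested geranylgeranyl diphosphate synthase genes, whose product feeds carotenoids and chlorophyll, were called higher. A farnesyl diphosphate synthase gene (FPS, PH02Gene00438), which makes the precursor of sesquiterpenes, had 178, 234 and 229 FPKM in leaf, against 0.498, 1.99 and 0.297 FPKM in rhizome. Its log2 difference was 7.96 ± 0.88 (adjusted p = 3.36e-05), and 9.23 without rhizome 2. Another FPS gene (PH02Gene34705) lay at 1.64, 1.46 and 1.61 FPKM in leaf and 4.57, 4.29 and 5.88 FPKM in rhizome, and was lower in leaf, with a log2 difference of -1.50 ± 0.35 (adjusted p = 0.00492). GGR (PH02Gene01535), a subunit of geranylgeranyl diphosphate synthase, differed by 2.24 ± 0.27 (adjusted p = 6.12e-05), and SPS2 (PH02Gene25492), which makes the side chain of plastoquinone, by 1.30 ± 0.34 (adjusted p = 0.00936). IPI1 (PH02Gene44781), the isomerase of the isoprenoid units, had 112, 136 and 120.2 FPKM in leaf and 169, 268 and 83.2 FPKM in rhizome; the groups overlapped and its difference of -0.39 ± 0.36 was not called (adjusted p = 0.399), but came to -0.75 without rhizome 3 (adjusted p = 0.0383).

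Terpene synthases differed gene by gene. Of 37 tested, 14 were called higher in leaf and 12 lower; the median log2 difference was 0.14, or 0.51 with genes of no count set at their bound of 3 counts over the group. For the 32 tested sesqui- and monoterpene synthases the median changed sign between these treatments, at -0.34 and 0.33. TPS26 (PH02Gene44577), described as a beta-macrocarpene synthase, had 54.9, 62.3 and 58.2 FPKM in leaf and no count in rhizome, at least 730.9-fold higher in leaf (adjusted p = 0.000153). The 3 most abundant genes with the symbol TPS7 were all higher in leaf, the first of them (PH02Gene09155) at 172, 122 and 61.9 FPKM in leaf, against 5.09, 0.074 and 5.6 FPKM in rhizome. Its leaf values varied widely but overlapped no rhizome value; the log2 difference of 5.20 ± 1.64 (adjusted p = 0.0233) missed the threshold without leaf 1 (adjusted p = 0.0531) or rhizome 1 (0.0636). The second (PH02Gene26515) had 66.7, 39.4 and 23.7 FPKM in leaf and 1.42, 0 and 5.04 FPKM in rhizome, and its call (log2 difference 4.498 ± 1.66, adjusted p = 0.0444) was lost without any leaf library, without rhizome 1 or without rhizome 2, with adjusted p from 0.0632 to 0.127; without rhizome 3 the difference was 6.02. The last of them (PH02Gene50914) differed by 4.71 ± 1.25 (adjusted p = 0.00992), and by 5.73 without rhizome 3.

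The 2 most abundant genes described as germacrene D synthases were lower in leaf. TPS2 (MSTRG.59063) had 0.8, 1.19 and 0.248 FPKM in leaf, against 24.4, 27 and 19.3 FPKM in rhizome. A second gene of that description (PH02Gene40249) had 0.108, 0.529 and 0.207 FPKM in leaf and 7.35, 10.3 and 8.99 FPKM in rhizome. Neither overlapped between the organs, and the log2 differences were -4.80 ± 0.54 (adjusted p = 3.76e-05) and -4.84 ± 0.62 (adjusted p = 9.69e-05; -5.75 without leaf 2). TPS1 (PH02Gene49330), described as a farnesol synthase, was higher in leaf, with 11.8, 8.57 and 7.46 FPKM against 0, 0 and 0.289 FPKM in rhizome. The difference was 6.62 ± 1.37 (adjusted p = 0.00243), and 10.35 without rhizome 3. KS1 (PH02Gene01757), the kaurene synthase that leads into gibberellins, was not called (-0.34 ± 0.17, adjusted p = 0.118).

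**Figure D3:**
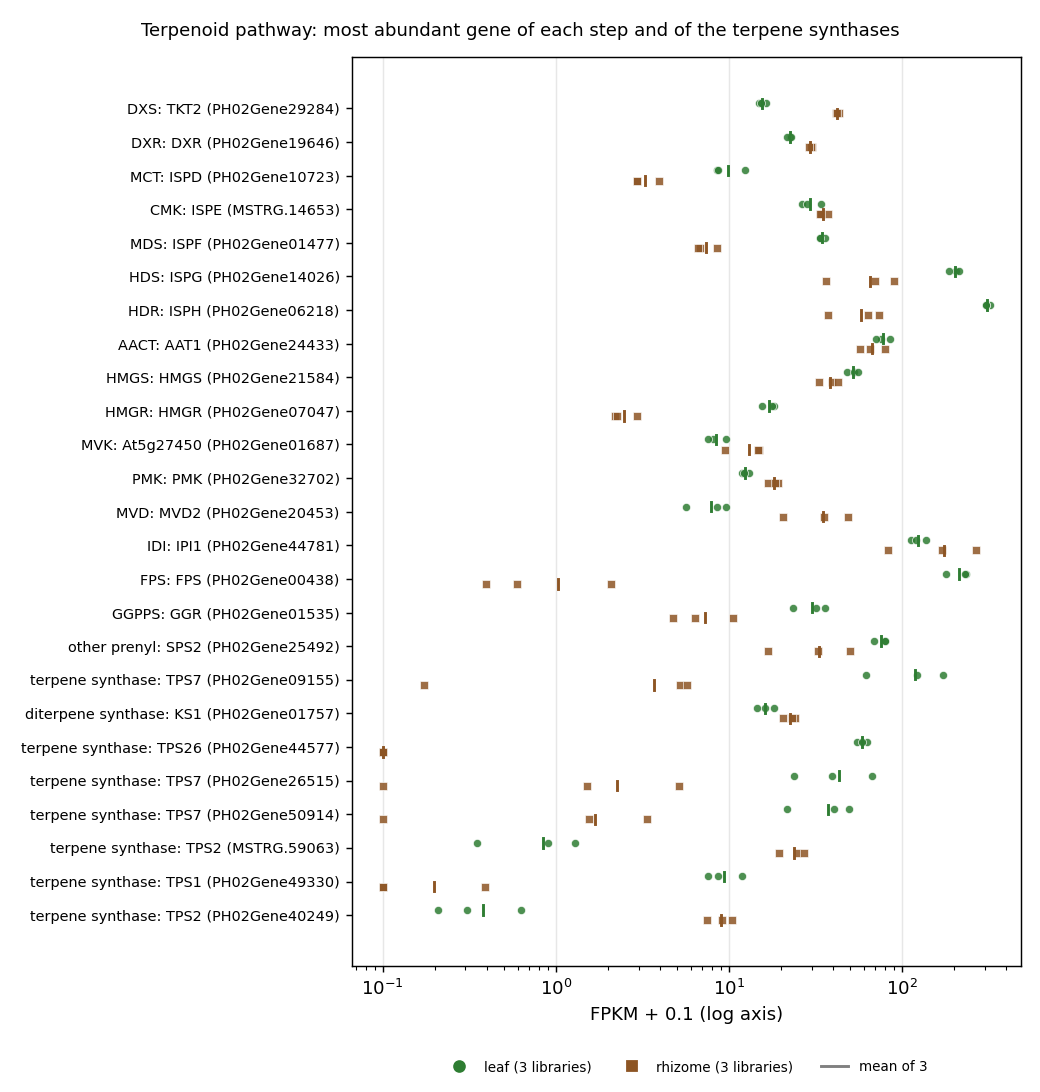
FPKM (log axis) in the 3 leaf libraries (circles) and 3 rhizome libraries (squares), with the mean of each group as a tick, for the most abundant gene of each MEP, mevalonate, prenyl diphosphate and terpene synthase step; 0.1 FPKM was added to each value. ISPH lies above 300 FPKM in every leaf library and at 73 FPKM or less in rhizome. The DXR, ISPE and AAT1 genes drawn, which are not the only copies, lie close together in both organs. HMGR lies at 15.4 FPKM or more in leaf and at 2.83 FPKM or less in rhizome.

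Downstream of geranylgeranyl diphosphate, carotenoid genes were higher in leaf for 31 of 38 tested, with none lower. ZEP (PH02Gene02171), zeaxanthin epoxidase of the xanthophyll cycle, had 389.5, 388 and 429 FPKM in leaf and 2.46, 4.25 and 1.09 FPKM in rhizome, a log2 difference of 7.38 ± 0.57 (adjusted p = 2.49e-06; 8.02 without rhizome 2). Of 13 abscisic acid genes, 5 were called higher and 4 lower. NCED1 (PH02Gene37228), which cleaves carotenoids on the way to abscisic acid, had 158, 176 and 285 FPKM in leaf, against 0.046, 0 and 0 FPKM in rhizome, where a single count was recorded (adjusted p = 4.00e-07). An abscisic acid 8'-hydroxylase gene (PH02Gene07411), which degrades the hormone, had 0.225, 0.4 and 0.07 FPKM in leaf and 11.7, 9.95 and 13.5 FPKM in rhizome. It was lower in leaf, with a log2 difference of -5.46 ± 0.45 (adjusted p = 3.99e-06), and -6.12 without leaf 2. For carotenoid and abscisic acid genes together, 4 were called lower, and 2 without leaf 1 or without rhizome 2.

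Starch genes showed the reverse of photosynthesis in their most abundant members. The list summed to 1882 to 2082 FPKM in leaf, against 18696 to 24392 FPKM in rhizome, and to 0.34% to 0.375% of all FPKM in leaf against 3.57% to 4.64% in rhizome. By gene count it was less one-sided: of 95 tested, 24 were called higher in leaf and 43 lower, with a median log2 difference of -0.91. A branching enzyme gene, SBE1 (PH02Gene29455), which adds the branches of amylopectin, was the most abundant, at 21.6, 23.7 and 24.8 FPKM in leaf and 6268, 10714 and 2699.3 FPKM in rhizome. The rhizome values spanned a wide range but all lay far above leaf, with a log2 difference of -8.03 ± 0.67 (adjusted p = 4.46e-06; -7.38 without rhizome 2). Another branching enzyme gene (PH02Gene29656) was steadier, at 17.8, 10.7 and 7.85 FPKM in leaf and 1249, 1246 and 1191 FPKM in rhizome, a difference of -6.54 ± 0.43 (adjusted p = 8.13e-07). PHO1 (PH02Gene21678), plastidic starch phosphorylase, had 26.2, 6.84 and 4.62 FPKM in leaf, against 1229, 1179 and 1175 FPKM in rhizome. Its difference was -6.46 ± 0.70 (adjusted p = 2.79e-05), and -7.55 without leaf 1.

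Isoforms of ADP-glucose pyrophosphorylase, the enzyme that makes the sugar donor for starch, were divided between the organs. The large subunit gene AGPL1 (PH02Gene27242) had 113, 132 and 144 FPKM in leaf and 0.057, 0.447 and 0 FPKM in rhizome. Its log2 difference was 9.70 ± 0.74 (adjusted p = 2.33e-06), 11.96 without rhizome 2 and 9.11 without rhizome 3. A second AGPL1 gene (PH02Gene12545), with 52.8, 64.3 and 64.9 FPKM in leaf and 2.19, 2.28 and 0.945 FPKM in rhizome, went the same way at 5.20 ± 0.52 (adjusted p = 1.77e-05). AGPL3 (PH02Gene25500), another large subunit gene, had 5.57, 7.85 and 0.729 FPKM in leaf, against 554, 193 and 798 FPKM in rhizome. The small subunit gene AGPS1 (PH02Gene13620) had 12.1, 15.3 and 10.4 FPKM in leaf and 825, 949 and 698 FPKM in rhizome. Both were lower in leaf without overlap, AGPL3 at -6.61 ± 0.88 (adjusted p = 0.000131; -7.21 without leaf 2) and AGPS1 at -5.91 ± 0.46 (adjusted p = 2.63e-06). AGPS2 (PH02Gene09180) overlapped between the organs, at 79.4, 76 and 71.2 FPKM in leaf and 269, 26 and 453 FPKM in rhizome, and was not called (adjusted p = 0.0786), but passed without rhizome 2 (-2.06, adjusted p = 0.000281).

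WAXY, the granule-bound starch synthase that makes amylose, was lower in leaf at both of its abundant copies. The first (PH02Gene37359) had 35.2, 21 and 20.2 FPKM in leaf and 831, 1242 and 481.5 FPKM in rhizome, a log2 difference of -4.96 ± 0.48 (adjusted p = 1.28e-05). The second (PH02Gene13019) had 30.4, 11.1 and 18.2 FPKM in leaf, against 3206, 4.53 and 5859 FPKM in rhizome. Rhizome 2 thus lay below every leaf library, and the fitted difference of -7.06 ± 1.604 (adjusted p = 0.00427) came to -6.15 without rhizome 3. A beta-amylase gene, BMY1 (PH02Gene08694), whose enzyme releases maltose from starch, was chosen after its values were seen; it had 3.85, 5.13 and 4.67 FPKM in leaf and 987, 2220.4 and 65.3 FPKM in rhizome, a difference of -7.83 ± 1.07 (adjusted p = 0.000156; -6.65 without rhizome 2). Breakdown genes as a group were called higher in leaf for 12 of 54 and lower for 26, and synthesis genes for 12 and 17 of 41. The shares over all tested genes were 21.1% and 24.7%.

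**Figure D4:**
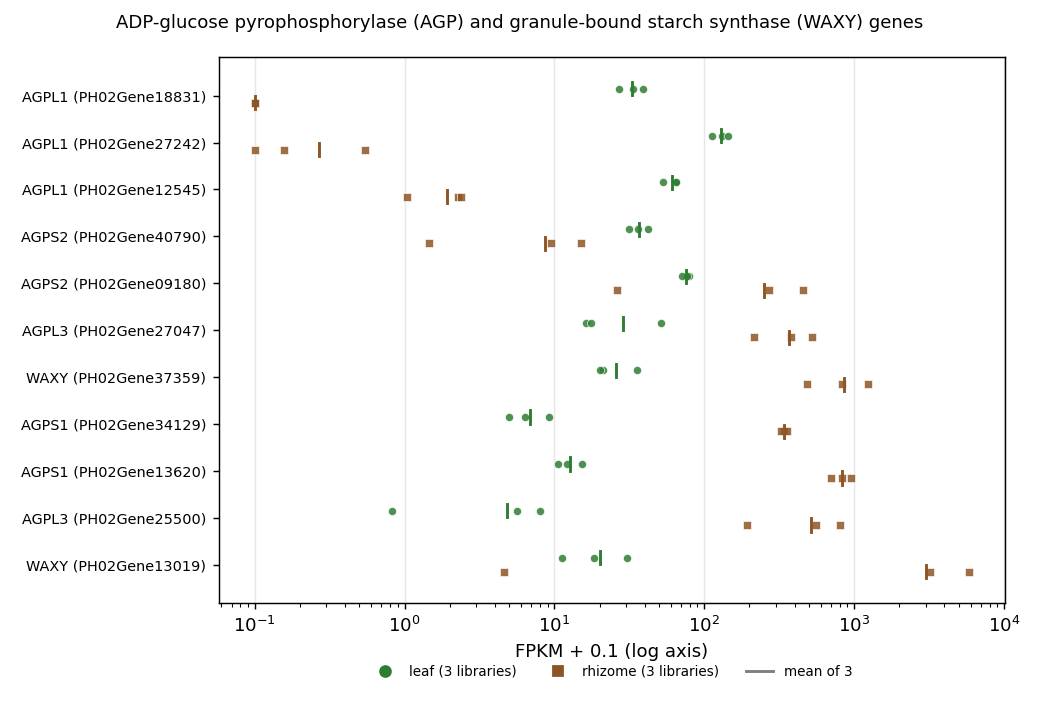
FPKM (log axis) of ADP-glucose pyrophosphorylase and WAXY genes in the 3 leaf libraries (circles) and 3 rhizome libraries (squares), each group's mean as a tick, with 0.1 FPKM added to each value. AGPL1 genes are high in leaf, AGPS1 and AGPL3 genes are high in rhizome, and WAXY PH02Gene13019 shows rhizome 2 at 4.53 FPKM, below all leaf libraries, with rhizome 1 and 3 at 3206 and 5859 FPKM.

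Sucrose genes of both directions were found. SPS (PH02Gene07232), sucrose-phosphate synthase of the sucrose-making route, had 35.5, 48.5 and 42.3 FPKM in leaf and 0.087, 0.226 and 0 FPKM in rhizome, a log2 difference of 8.76 ± 0.69 (adjusted p = 3.01e-06; 9.97 without rhizome 2 and 8.17 without rhizome 3). SUS1 (PH02Gene04423), sucrose synthase, which cleaves imported sucrose in sink organs, had 3.79, 17.4 and 3 FPKM in leaf, against 965, 1069.5 and 901 FPKM in rhizome. The difference was -6.79 ± 0.70 (adjusted p = 2.11e-05), and -8.04 without leaf 2. SUT1 (PH02Gene35041), a sucrose carrier used as a phloem marker, had 3.49, 1.59 and 2.71 FPKM in leaf and 132, 170.3 and 88.7 FPKM in rhizome; no values overlapped and the difference was -5.53 ± 0.38 (adjusted p = 1.28e-06). Of 5 phloem markers tested, SUT1 was the only 1 called, 4 were not called, and the median log2 difference was -0.40. Over the whole list of sucrose and sugar transport, 24 of 98 tested were called higher and 31 lower, with a median of -0.83 (-0.72 at the bound). Among all tested genes, 21.1% were called higher and 24.7% lower.

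Lignin precursor genes were more often lower in leaf, but their level depended strongly on the rhizome library. Of 102 tested monolignol genes, 17 were called higher in leaf and 42 lower, with a median log2 difference of -0.98. PAL (PH02Gene27016), the ammonia-lyase that opens the phenylpropanoid route, had 49.9, 73.3 and 26.1 FPKM in leaf and 1209.9, 2855 and 86.4 FPKM in rhizome. Rhizome 3 lay just above the highest leaf library, and the difference was -4.73 ± 1.03 (adjusted p = 0.00325), or -3.51 without rhizome 2. A cinnamyl alcohol dehydrogenase gene, CAD5 (PH02Gene38470), ran the other way with 48.5, 11 and 6.33 FPKM in leaf and no count in rhizome, at least 305.6-fold higher in leaf (adjusted p = 0.000104), or at least 125.9-fold without leaf 1. Xylem and fibre markers summed to 128.0, 166.2 and 151.8 FPKM in leaf libraries, against 524.2, 1063 and 153.4 FPKM in rhizome libraries 1, 2 and 3, so rhizome 3 was at leaf level.

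Laccases, which polymerise lignin, and the CESA genes of cellulose synthesis also summed highest in rhizome 2 and lowest in rhizome 3, while cellulose synthase-like genes ran the other way. Of 82 tested laccases and class III peroxidases, 12 were called higher in leaf and 26 lower (16 without leaf 1 and 17 without leaf 3), with a median log2 difference of -1.46 (-1.29 at the bound). LAC10 (PH02Gene03534), a laccase, had 0.179, 3.23 and 0.221 FPKM in leaf and 85.3, 197 and 0.526 FPKM in rhizome. The groups overlapped, and its difference of -6.19 ± 1.87 (adjusted p = 0.0192) missed the threshold without leaf 1 (adjusted p = 0.0681) or leaf 3 (0.0706), and came to -8.76 without leaf 2 and -4.92 without rhizome 2. LAC8 (PH02Gene11402) had 31.1, 11.6 and 7.54 FPKM in leaf and no count in rhizome, at least 295.9-fold higher (adjusted p = 0.000417), or at least 174.3-fold without leaf 1. In the cellulose synthase superfamily, 10 of 60 tested were called higher and 14 lower; without a library the lower count was 6 (leaf 1 or rhizome 2), 5 (leaf 3), 9 (rhizome 1) and 24 (rhizome 3). CESA8 (PH02Gene34577) had 1.25, 2.49 and 0.485 FPKM in leaf, against 15.8, 31.1 and 7.99 FPKM in rhizome. Its difference was -3.60 ± 0.72 (adjusted p = 0.00203), -4.30 without leaf 2 and -2.87 without rhizome 2. CSLE6 (PH02Gene01240), a cellulose synthase-like gene, was higher in leaf at 57.1, 51.1 and 73.7 FPKM against 7.79, 0.257 and 12.5 FPKM in rhizome (3.35 ± 0.84, adjusted p = 0.00721; 4.09 without rhizome 3). CSLH1 (PH02Gene48156), the most abundant tested gene of the superfamily, had 151, 199 and 123 FPKM in leaf and 90.2, 12.2 and 161 FPKM in rhizome. The groups overlapped and it was not called (1.03 ± 0.62, adjusted p = 0.192), but it passed without rhizome 3 (1.79, adjusted p = 0.0354).

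Genes listed as Casparian strip, dirigent and suberin genes by words in their descriptions were called higher in leaf for 12 of 63 tested and lower for 20. The shares over all tested genes were 21.1% and 24.7%. Their median log2 difference was -0.63. The list holds CASP-like genes such as PH02Gene43735 and MSTRG.69406, so its counts are not those of endodermal barrier genes alone. The 6 Casparian strip membrane protein genes stayed at or below 0.4 FPKM in both organs. The lower count was 12 without leaf 1, leaf 3 or rhizome 2 and 13 without leaf 2. CIF1 (PH02Gene43862), a gene for the peptide that in Arabidopsis keeps the Casparian strip closed, had 10.7, 11.7 and 7.2 FPKM in leaf and 72.1, 84.7 and 60.3 FPKM in rhizome. It was lower in leaf without overlap, with a log2 difference of -2.75 ± 0.36 (adjusted p = 0.000111).

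Transport genes were mixed. Of 155 tested nutrient and silicon transporter genes, 45 were called higher in leaf and 38 lower, with a median log2 difference of -0.07. Phosphate transporters were higher for 10 of 19 and lower for 2, and silicon transporters higher for 2 of 12 and lower for 5. A gene described as potassium transporter 2 (PH02Gene03678) had 40.5, 51.3 and 33.8 FPKM in leaf and no count in rhizome, at least 272.3-fold higher (adjusted p = 7.13e-06). The uptake gene HAK1 (PH02Gene29364) had no count in leaf, against 43.9, 0.832 and 81 FPKM in rhizome, where rhizome 2 was far below the others. Rhizome exceeded leaf by at least 969.3-fold (adjusted p = 0.00094), or at least 533.1-fold without rhizome 3. LSI3 (PH02Gene03618), a silicon efflux transporter, had 246, 252 and 237 FPKM in leaf and 141, 166 and 121 FPKM in rhizome; its difference of 0.91 ± 0.27 (adjusted p = 0.0175) missed the threshold without rhizome 1 (adjusted p = 0.0632) or rhizome 3 (0.0523).

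Aquaporins, the water channels, were called higher in leaf for 8 of 39 tested (5 without rhizome 1) and lower for 12, beside 21.1% and 24.7% of all tested genes. Tonoplast members were higher for 2 of 11 and lower for 7. PIP2-7 (PH02Gene05090), a plasma membrane channel, had 386, 319 and 557 FPKM in leaf, against 0.12, 0 and 0.501 FPKM in rhizome. The difference was 11.01 ± 0.92 (adjusted p = 1.62e-05), and 12.49 without rhizome 3. The most abundant aquaporin, PIP1-2 (PH02Gene00514), had 196, 242 and 209 FPKM in leaf and 601, 756 and 561 FPKM in rhizome, and was lower in leaf, with a log2 difference of -1.44 ± 0.30 (adjusted p = 0.00243). TIP4-1 (PH02Gene26640), of the vacuole membrane, was lower too, at 0.981, 0.439 and 2.99 FPKM in leaf and 24, 38.6 and 14.4 FPKM in rhizome (-4.02 ± 0.61, adjusted p = 0.00032; -5.10 without leaf 3).

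Genes of the waxy leaf surface were higher in leaf. Of 59 tested cuticle and wax genes, 31 were called higher in leaf and 1 lower, with a median log2 difference of 3.23 (2.58 at the bound); the lower count was 3 without leaf 2 and 4 without rhizome 2. WSD1 (PH02Gene12844), which joins fatty acids and alcohols into wax esters, had 60.8, 39.5 and 56.4 FPKM in leaf and no count in rhizome, at least 790.3-fold higher (adjusted p = 0.00022). KCS11 (PH02Gene04189), a fatty acid elongase, was the member lower in leaf, at 0.075, 0.269 and 0 FPKM against 2.62, 2.79 and 1.74 FPKM in rhizome (-4.14 ± 1.13, adjusted p = 0.0117; -5.62 without leaf 2). ECR (PH02Gene04067), the most abundant member, had 92.5, 123 and 113 FPKM in leaf and 80.2, 89.1 and 72.3 FPKM in rhizome. Its difference of 0.58 ± 0.19 (adjusted p = 0.0262) missed the threshold without leaf 2, leaf 3, rhizome 1 or rhizome 3 (adjusted p from 0.0763 to 0.0952). In the separate list of stomatal development and guard cell genes, 3 of 6 tested were called higher in leaf (1 without leaf 2 or rhizome 1) and none lower, whereas the guard cell marker list had 5 of 11 higher and 2 lower. SLAC1 (PH02Gene01933), the anion channel that closes stomata, had 5.34, 8.04 and 5.66 FPKM in leaf and 0.058, 0.065 and 0 FPKM in rhizome, from 2 counts in all (adjusted p = 0.000424). FAMA (PH02Gene06344), the factor of the last step to a guard cell, had 2.73, 1.62 and 2.53 FPKM in leaf, against 0.308, 0 and 1.21 FPKM in rhizome. Its difference of 2.33 ± 0.86 (adjusted p = 0.0444) missed the threshold without leaf 1, leaf 2, leaf 3 or rhizome 1 (adjusted p from 0.0578 to 0.138), and came to 3.90 without rhizome 3.

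KNOX and auxin genes were more often lower than higher in leaf. Of 23 tested KNOX genes, homeobox factors of shoot meristems and stems, 2 were called higher in leaf and 13 lower, with a median log2 difference of -2.21. OSH15 (PH02Gene32186) had 0.457, 0.162 and 0.422 FPKM in leaf, against 102, 197 and 23.8 FPKM in rhizome. Its difference was -8.17 ± 0.84 (adjusted p = 2.06e-05), and -7.28 without rhizome 2. Auxin genes were called higher in leaf for 9 of 89 tested and lower for 44, with a median of -1.79. An auxin influx carrier gene (PH02Gene37523) had 1.34, 1.72 and 1.12 FPKM in leaf and 79.9, 175 and 16.5 FPKM in rhizome, a difference of -5.94 ± 0.81 (adjusted p = 0.000156; -4.91 without rhizome 2). TAR4 (PH02Gene27429), an aminotransferase-related gene of the auxin synthesis family, ran against the list at 142, 180.1 and 227 FPKM in leaf and 13.2, 20.7 and 10.1 FPKM in rhizome (3.76 ± 0.37, adjusted p = 1.47e-05).

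Gibberellin genes were called higher in leaf for 4 of 25 and lower for 12 (7 without leaf 1), with a median log2 difference of -1.43. The ent-kaurene oxidase gene CYP701A6 (PH02Gene46349), of gibberellin synthesis, had 0.465, 0.828 and 1.11 FPKM in leaf and 14.5, 2.64 and 24.9 FPKM in rhizome (-3.92 ± 0.65, adjusted p = 0.000574; -3.23 without rhizome 3). GA2OX3 (PH02Gene31983), from the family that inactivates gibberellins, had 3.94, 3.51 and 5.49 FPKM in leaf and no count in rhizome, at least 17.2-fold higher (adjusted p = 0.00137). Cytokinin genes were called higher for 13 of 59 (8 without rhizome 1) and lower for 18. RR1 (PH02Gene14808), a response regulator, had 38, 45.4 and 44.5 FPKM in leaf and 7.3, 2 and 10.7 FPKM in rhizome (2.85 ± 0.47, adjusted p = 0.000552). LOGL10 (PH02Gene20702), of the family that activates cytokinins, was lower in leaf at 0.605, 1.29 and 0.512 FPKM against 15.7, 8.83 and 19.7 FPKM in rhizome (-3.98 ± 0.63, adjusted p = 0.000424).

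Jasmonate and flavonoid genes held members of both directions. Jasmonate genes were called higher in leaf for 16 of 65 tested and lower for 23 (14 without leaf 2, 13 without leaf 3 and 15 without rhizome 1), with a median log2 difference of -1.41, or -0.65 at the bound. The chloroplast lipoxygenase LOX2.3 (PH02Gene44707), from the family that starts jasmonate synthesis, had 255, 200.2 and 136 FPKM in leaf and no count in rhizome, at least 6047-fold higher (adjusted p = 0.000681). A 9S-lipoxygenase gene (PH02Gene33719), which oxidises linoleate at another position, had 2.15, 1.19 and 0.872 FPKM in leaf, against 163, 80.7 and 248 FPKM in rhizome (-6.71 ± 0.55, adjusted p = 3.72e-06). The jasmonate list was drawn by words in gene descriptions, so its counts are not those of jasmonate synthesis genes alone. Flavonoid genes were called higher for 18 of 55 and lower for 6 (11 without rhizome 2), with a median of 0.65 (0.51 at the bound). An ANR gene described as a dihydroflavonol reductase (PH02Gene16551) had 152, 141 and 141 FPKM in leaf and 4.41, 3.74 and 5.05 FPKM in rhizome, a difference of 5.18 ± 0.25 (adjusted p = 1.48e-07). A second ANR gene (PH02Gene32097) was lower in leaf, at 11.3, 5.55 and 2.17 FPKM against 67.1, 19.6 and 118 FPKM in rhizome (-3.27 ± 0.62, adjusted p = 0.00138; -3.94 without leaf 1 and -2.65 without rhizome 3).

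Cytosolic ribosomal protein genes were lower in leaf in large number. Of 361 tested, 11 were called higher and 213 lower, with a median log2 difference of -0.996, and their summed level was 9475 to 10841 FPKM in leaf, against 21279.8 to 27193 FPKM in rhizome. RPL5A (PH02Gene29817) had 231, 199 and 197 FPKM in leaf and 534, 777 and 345 FPKM in rhizome (-1.29 ± 0.30, adjusted p = 0.00523). Another L5 gene (PH02Gene07179) had 16.2, 18.1 and 19.2 FPKM in leaf and no count in rhizome, at least 57.1-fold higher (adjusted p = 0.000125). LEA and dehydrin genes, known from drying seeds, were called higher for 2 of 24 and lower for 11. An abscisic stress-ripening gene (PH02Gene44715) had 3.99, 6.24 and 2.04 FPKM in leaf, against 198, 200.5 and 203 FPKM in rhizome, where the libraries lay close together (-5.48 ± 0.51, adjusted p = 1.03e-05).

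Heat shock genes were called higher in leaf for 18 of 75 tested and lower for 8, but their most abundant member was lower. HSP70 (PH02Gene35944), a constitutive chaperone by its description, had 265, 289 and 253 FPKM in leaf and 1879, 2349.9 and 1605 FPKM in rhizome (-2.73 ± 0.28, adjusted p = 1.76e-05). Chitinases, glucanases and pathogenesis-related proteins were higher for 18 of 111 and lower for 37. A beta-1,3-glucanase gene, BANGLUC (PH02Gene40717), had 84, 50.1 and 33.9 FPKM in leaf and 0, 0.574 and 0.429 FPKM in rhizome. It was higher in leaf (7.47 ± 1.16, adjusted p = 0.000372), at 6.86 without rhizome 1 and 8.14 without rhizome 2. PRMS (PH02Gene48686), a pathogenesis-related protein, had 30.2, 47.5 and 37 FPKM in leaf, against 597, 1216 and 208 FPKM in rhizome. All rhizome values exceeded all leaf values (-4.05 ± 0.63, adjusted p = 0.000366; -3.20 without rhizome 2).

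Cell division genes gave no common direction. Of 56 tested replication and mitosis genes, 9 were called higher in leaf and 11 lower (7 without leaf 1 and 17 without rhizome 3), with a median log2 difference of -0.21. CDKB2-1 (PH02Gene25184), a kinase of the entry into mitosis, had 19.6, 23.5 and 21.9 FPKM in leaf and 0.499, 0.398 and 0 FPKM in rhizome (6.27 ± 0.73, adjusted p = 4.85e-05; 5.67 without rhizome 3). The replication clamp PCNA (PH02Gene05832) had 6.2, 5.44 and 5.51 FPKM in leaf, against 33.2, 47.5 and 22 FPKM in rhizome (-2.47 ± 0.31, adjusted p = 8.82e-05). Histone genes were called higher for 6 of 48 (3 without leaf 2 or rhizome 1) and lower for 7. Both these lists are to be read beside 21.1% called higher and 24.7% called lower among all tested genes. Circadian clock genes were called higher for 19 of 47 and lower for 8, and sampling times are not labelled. PRR73 (PH02Gene18607), a clock response regulator, had 81.2, 91.9 and 82.4 FPKM in leaf and 30.1, 22.8 and 34.6 FPKM in rhizome (1.70 ± 0.18, adjusted p = 2.26e-05), and RVE2 (PH02Gene01456) differed by -3.79 ± 0.64 (adjusted p = 0.000669).

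Among transcription factor families as the deposited table assigns them, those named here were chosen after their values were seen. HB genes were called higher in leaf for 2 of 21 tested and lower for 13, Dof genes for 4 and 25 of 39, MADS genes for 5 and 21 of 37, AP2-EREBP genes for 10 and 53 of 123 and ARF genes for 2 and 22 of 42. CO-like genes leaned the other way, with 28 of 56 called higher and 13 lower, as did TCP genes with 8 and 3 of 19 and mTERF genes, regulators of organelle expression, with 14 and 2 of 39. These families are to be read against 21.1% called higher and 24.7% called lower among all tested genes. The HB family had the same called counts as the KNOX list above, and genes shared by both were not counted.

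**Figure D5:**
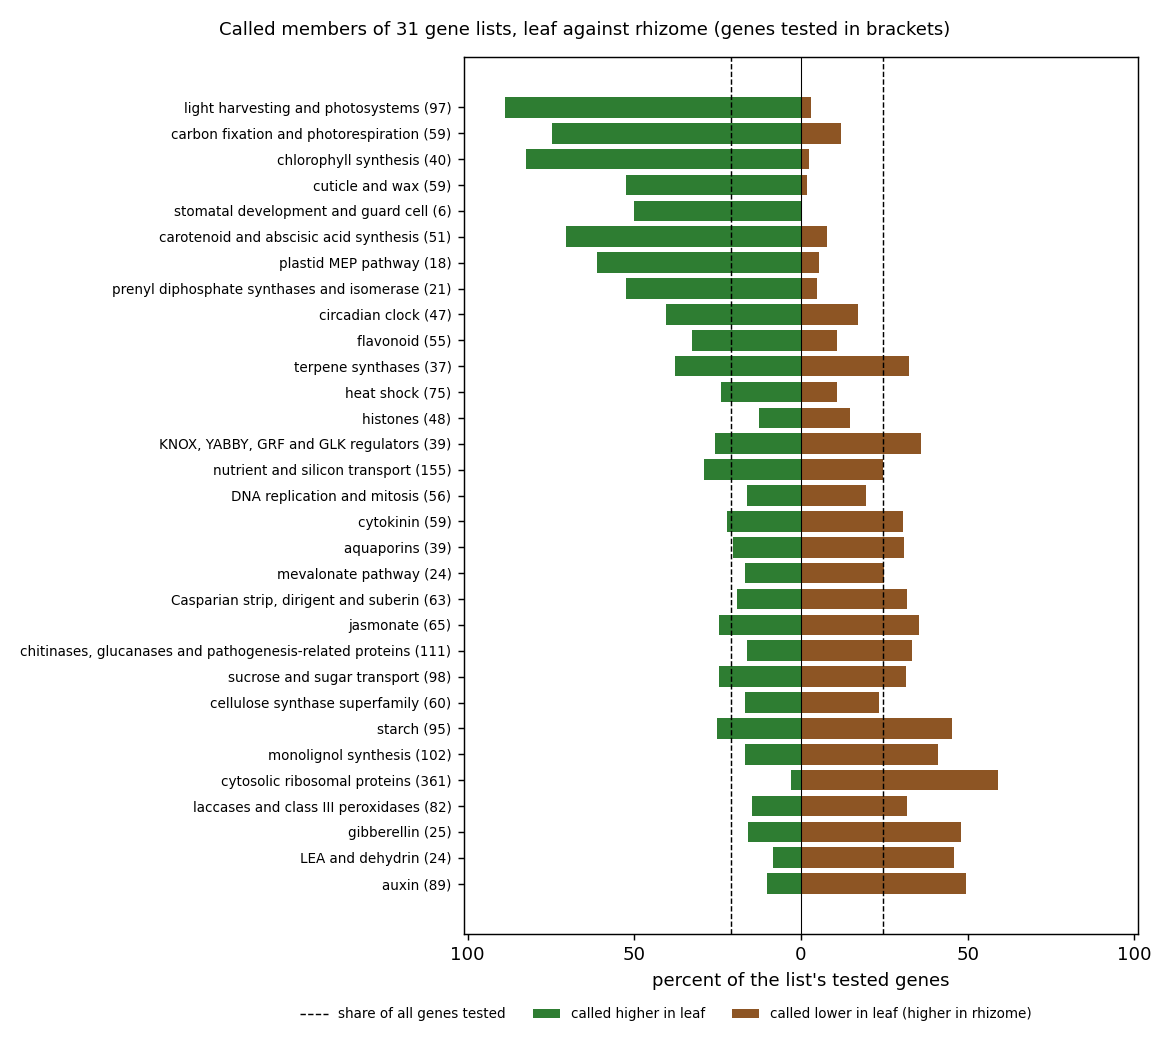
For each of the 31 gene lists, the share of tested members called higher in leaf (bars to the left) and lower in leaf (bars to the right), in percent, with the shares over all tested genes drawn as lines. Photosystem, chlorophyll, carotenoid and cuticle lists extend left, and ribosomal protein, auxin and LEA lists extend right.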

How the data were processed

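RNA was sequenced from 3 leaf and 3 rhizome libraries among 27 in the series, and groups were taken from the tissue labels. Per the submitters' processing notes, HISAT2, StringTie 1.3.1 and RSEM were used; their roles and settings and the genome build are not given in the sources used here. The authors deposited estimated counts per gene, which need not be whole, and the FPKM made from them. FPKM is scaled for depth and gene length only, so FPKM ratios and fitted folds can differ.

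Here the counts were rounded and fitted with edgeR 4.0.16 (TMM scaling, quasi-likelihood F test, two-sided, R 4.3.3). The fit covered the 12 plant part libraries (leaf, rhizome, branch and stem), with group as the only term and 1 shared estimate of spread per gene. Estimated within each part, variation between libraries was 59.9% in rhizome, 19.9% in leaf, 30.8% in branch and 39.4% in stem. The shared estimate can thus be too small for rhizome and too large for leaf. Standard errors and adjusted p carry this limit. Of 57356 genes, 29630 with at least 1 FPKM in 3 or more of the 12 libraries were tested, and p-values were adjusted by Benjamini-Hochberg over them. Standard errors are the log2 difference over the root of F. Folds against a group with no count use a floor of 3 counts over the group. Replicates differed beyond sampling noise, with a chi-square per degree of freedom of 6.52 to 7.97 between leaf libraries and 24.6 to 93.3 between rhizome libraries. The lists, members and tests were chosen with earlier results of these data known. Named genes were chosen by rule. The first were the 8 largest called differences each way with a description, at least 10 FPKM and no overlap. From each list came the largest called member each way among those without overlap, and the most abundant member. Some genes chosen by these rules are not described above, and they include genes that were not called. The most abundant gene of each terpenoid step was added. For the largest members, no overlap was thus a condition of choice and not a separate result. Marker genes are named from the marker lists. In simulated counts, 200 of 29630 genes were changed. The fit found 1% of the smaller changes and 32% of the larger ones, and 8.33% of its calls were false. Far fewer genes were changed there than were called here, which makes the adjusted threshold stricter. These rates therefore do not carry over to this comparison. A gene that was not called is still not shown to be alike in both organs. Alternatives were RLE scaling, DESeq2 1.42.0, limma 3.58.1 on log2(FPKM + 1) and log2(FPKM + 0.1), no filter, only 6 libraries, a replicate block, and leaving out each library.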

Additional observations from a re-analysis of the deposited data

How the results depend on the processing

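With the main settings 6239 genes were called higher and 7319 lower in leaf; RLE scaling gave 6667 and 6755, DESeq2 7307 and 7530, limma on log2(FPKM + 1) 6003 and 7804, limma on log2(FPKM + 0.1) 5823 and 7861, no filter 6217 and 7308, and a fit to the 6 libraries alone 5621 and 5755. Leaving out each library in turn gave 4903 to 6662 higher and 5464 to 7653 lower. With the replicate number as a block 5913 were called higher and 6707 lower. Deviations of same-numbered leaf and rhizome libraries correlated at 0.000788, 0.150 and 0.0665, and those of differently numbered libraries at -0.188 to 0.150. With 3 libraries a side, these values cannot decide whether the numbers mark a pairing. No pairing was used because the labels do not say that a number marks a shared plant. Of 1456 combinations of a named gene and an alternative, 1396 kept direction and call, 40 lost the call, 19 gained it and 1 changed sign: IPI1, not called with all libraries, at 0.16 without rhizome 2. The range of IPI1 over the left-out libraries was -0.75 to 0.16. Of the 112 named genes, 100 were called, and many were picked as the largest called differences. Their agreement between settings is thus favoured by that choice and does not describe genes in general. Among all genes, 5365 of the 6239 higher calls and 5611 of the 7319 lower calls were also made in the 6-library fit. Among list counts, laccases and peroxidases lower in leaf came to 40 with no filter, cellulose synthase genes to 6 higher and 7 lower, Casparian strip genes to 13 lower and stomatal genes to 1 higher in the 6-library fit, histones to 11 lower with limma, and cuticle genes to 2 lower with DESeq2 or no filter; the cause was not tested. A count of 3 in 1 library corresponded to 0.335 to 0.395 CPM, and levels below that rest on very few counts.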
